A study of Homo sapiens with 32 samples.

Results

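H3K27me3 was compared between MDA-MB-231 cells given a p38 MAP kinase inhibitor and an EZH2 inhibitor together (labelled combo) and cells given the p38 inhibitor alone (labelled P38i), so that the contrast shows what changed when EZH2 was inhibited on top of p38. The groups were taken from the treatment labels. They hold 4 combo and 4 P38i libraries, 8 of the 32 samples in the series. MDA-MB-231 is an established triple-negative breast cancer line, and treatment lasted 24 h. The combo cells received EPZ and P38i, as the labels call the agents, and no dose or full compound name was given in the sources used here. Libraries from 4 untreated control and 4 EPZ-only samples entered the same model fit and are given beside the results. The other 16 samples were IgG immunoprecipitations, not used here. All groups share the parental line and carry no labelled genetic change. The labels do not say whether the 4 libraries of a group came from separate cultures, so p-values measure the spread between these libraries, which may be technical.

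EZH2 is the catalytic subunit of Polycomb repressive complex PRC2, which methylates lysine 27 of histone H3. The trimethylated form, H3K27me3, lies in broad domains over genes that a cell lineage keeps silent, such as developmental regulators and genes of other tissues. p38 is a stress-activated kinase family encoded by MAPK14, MAPK11, MAPK12 and MAPK13. An EZH2 inhibitor blocks new methylation, and existing marks are lost mainly as histones are replaced and cells divide.

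The deposited files list islands, which are stretches called as enriched for H3K27me3, with no height, count or score. Every value is therefore the length or percent of sequence inside a called island, and read depth is unknown. Coverage of a gene means the percent of the gene and 2.5 kb on each side of it that lay inside islands. The combo libraries held 65384 to 70570 islands over 565 ± 43.2 Mb (SD, n = 4), and the P38i libraries held 55334 to 80543 islands over 620 ± 61.4 Mb (n = 4). Covered length was 649, 624, 674 and 533 Mb in P38i replicates 1 to 4 and 526, 532, 615 and 587 Mb in combo replicates 1 to 4. P38i replicate 4 had less covered length than combo replicates 3 and 4, so the groups overlapped. The difference was -55.1 Mb (2-sided exact permutation p = 0.143 over 70 arrangements, adjusted p = 0.476 over 5 island measures).

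The islands were set beside marker genes of this and other cell types. EZH2, MAPK14, MAPK11 and MAPK12 had no island in any of the 8 libraries, and MAPK13 had at most 8.53%, in the combo libraries. Of 10 genes that MDA-MB-231 is known to express, 9 had no island, and MSN, which encodes the cytoskeletal linker moesin, had at most 6.56%. Among luminal breast genes, the progesterone receptor gene PGR was covered to 94.5% ± 2.93 in P38i and 95.7% ± 4.40 in combo (n = 4). The estrogen receptor gene ESR1 lay at 12.1% ± 2.25 and 8.19% ± 2.91. An island lay over 3 of 8 luminal, 2 of 6 epithelial, 1 of 4 blood and 2 of 4 fibroblast markers. ESRP1, an epithelial splicing regulator, went from 80.2% ± 8.53 to 55.6% ± 9.84 and was not called (adjusted p = 0.0971). The cell cycle, housekeeping and epithelial-mesenchymal transition lists had no member with enough coverage to be tested, and 33 of 34 Polycomb genes had no island in the 8 libraries.

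Of 19974 protein-coding genes, 4105 averaged 5 to 95% coverage across the 16 libraries in the fit and were tested with limma. Another 15518 lay below that range and 351 above it. In combo, 76 genes were lower than in P38i and 3 were higher (Benjamini-Hochberg adjusted p under 0.05, limma), which is 1.85% and 0.0731% of those tested and 1.92% together. At an unadjusted p under 0.05 the count was 830. The lower genes fell by 13.6 points or more, with a median of -28.7 and a largest of -77.1 percentage points, and 12 of them had no island left in any combo library. Among all tested genes, 76.6% had a negative difference and the median was -5.14 points, so the called falls sit on a general downward shift. With the covered length of each library as a covariate, that median was -1.59 points and the calls were 43 lower and 25 higher. With lists cut to equal length it was -1.41 points, with 6 lower and 6 higher. All 4 combo libraries lay below all 4 P38i libraries at 411 genes (10%) and above them at 34 (0.828%), 10.8% together.

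**Figure D1:**
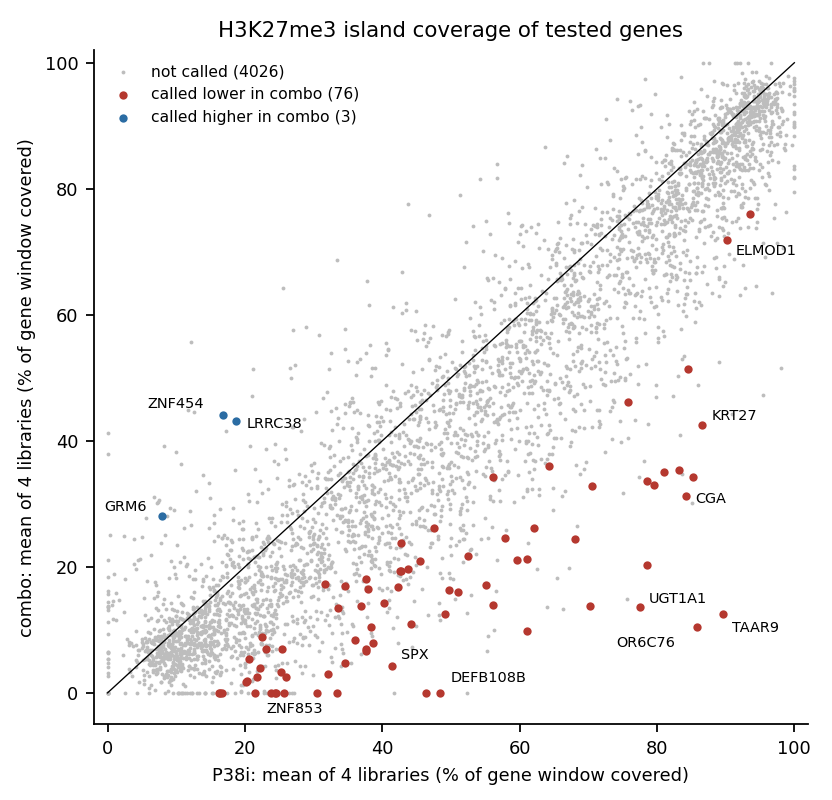
Mean percent of each tested gene's window covered by islands in P38i (x axis) and combo (y axis), 4 libraries each; 1 point per gene, and the line marks equal coverage. The 76 genes called lower lie below the line from full coverage down to 0 in combo, and the 3 called higher, LRRC38, ZNF454 and GRM6, lie above it at less than 50% coverage.

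Single libraries weighed on these counts. Without P38i replicate 4, the P38i library with the least covered length, 231 genes were called. Without P38i replicates 1, 2 or 3 the counts were 29, 23 and 16. Without combo replicates 1 to 4 they were 29, 21, 49 and 30. Of the 76 lower genes, 13 stayed below an adjusted p of 0.05 whichever of the 8 libraries was left out. ZNF853 and GYPE were called in all the sets in which they could be tested, 6 and 5 of the 8, and the other lower genes lost the call in at least 1 set or were not tested in it. The 13 were CGA, KRT27, SPX, TAC3, ALOX15, DEFB108B, OR6C76, NME5, FOXB1, MYZAP, PURG, LOC107987433 and LOC124903725. This group was singled out after its values were seen. All 13 were also called with the covered length as a covariate, while with equal-length lists 5 could be tested and 1, OR6C76, was called. Of all 76 lower genes, 56 could be tested with equal-length lists and 3 were called lower, OR6C76, CCKAR and ELMOD1. At genes where 4 libraries of a kind share the value 0, the fit has little spread to work with, so p can come out too small. Without the P38i libraries, mean coverage of SPX, TAC3, ALOX15, DEFB108B, NME5 and FOXB1 lay below the 5% filter. These genes entered the test through P38i, so their calls describe those libraries.

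CGA encodes the alpha subunit shared by the glycoprotein hormones of pituitary and placenta, and lies at chr6:87085498-87095106 (hg38). Its window was covered to 100, 82.2, 83.6 and 71.2% in P38i replicates 1 to 4 and to 19.2, 41.1, 32.9 and 31.5% in combo. The highest combo library lay well below the lowest P38i library. The difference was -53.1 points (95% interval -72.0 to -34.2, adjusted p = 0.00905), and -45.2 points with equal-length lists, where it was not called (adjusted p = 0.268). Without the p38 inhibitor it went from 81.2% ± 11.2 in control to 26.4% ± 18.0 in EPZ (n = 4, adjusted p = 0.0105). The connexin gene GJB7 lies on the same chromosome in a separate window, at chr6:87282980-87329278. It went from 42.7% ± 5.86 in P38i to 19.4% ± 4.52 in combo (adjusted p = 0.0156), although leaving out combo replicate 2 or P38i replicate 3 took its adjusted p up to 0.0609.

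The island map shows the start of CGA inside an island in all 4 P38i libraries and, in combo, in replicates 2 and 3 only. Within 2.5 kb on each side of the gene start it was 100, 72.1, 100 and 64.0% in P38i and 23.9, 52.0, 56.1 and 0% in combo. The promoter is short of CpG dinucleotides and carries the cyclic AMP response elements for which this gene is known. Promoter sequences are the 250 bases before the RefSeq gene start (GRCh38.p14), written 5′ to 3′ along the gene, with each CG dinucleotide in capitals. CGA (chr6:87095107-87095356, minus strand) is shown with KRT27 (chr17:40782551-40782800, minus strand) and FGF7 (chr15:49422992-49423241, plus strand), whose means around the gene start were also lower in combo.
CGA: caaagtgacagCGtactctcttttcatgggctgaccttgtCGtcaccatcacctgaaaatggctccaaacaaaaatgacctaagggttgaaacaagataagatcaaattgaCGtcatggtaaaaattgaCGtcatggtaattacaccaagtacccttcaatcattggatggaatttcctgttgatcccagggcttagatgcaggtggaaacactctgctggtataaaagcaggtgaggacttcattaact
KRT27: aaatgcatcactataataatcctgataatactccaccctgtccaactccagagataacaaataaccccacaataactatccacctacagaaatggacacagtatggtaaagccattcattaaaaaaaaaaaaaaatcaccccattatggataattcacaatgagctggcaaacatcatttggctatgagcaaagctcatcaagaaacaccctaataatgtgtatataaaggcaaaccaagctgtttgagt
FGF7: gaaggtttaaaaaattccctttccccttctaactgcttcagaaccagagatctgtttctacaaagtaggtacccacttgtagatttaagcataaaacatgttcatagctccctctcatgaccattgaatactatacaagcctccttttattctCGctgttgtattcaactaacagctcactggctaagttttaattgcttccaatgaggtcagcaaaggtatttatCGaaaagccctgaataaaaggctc
CG occurred 4 times in the CGA sequence, 0 times in KRT27 and 2 times in FGF7. The median was 4 in the 58 called-lower genes with a promoter entry, 7 in 3162 tested genes and 17 in 15812 protein-coding genes. The palindrome TGACGTCA, the full cyclic AMP response element, which reads the same on both strands, started 142 and 124 bases before the CGA gene start. It occurred in 0.980% of the tested promoters and 2.32% of all protein-coding ones, and in 3 of the 58. The match is a description of the letters and no factor was measured.

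**Figure D2:**
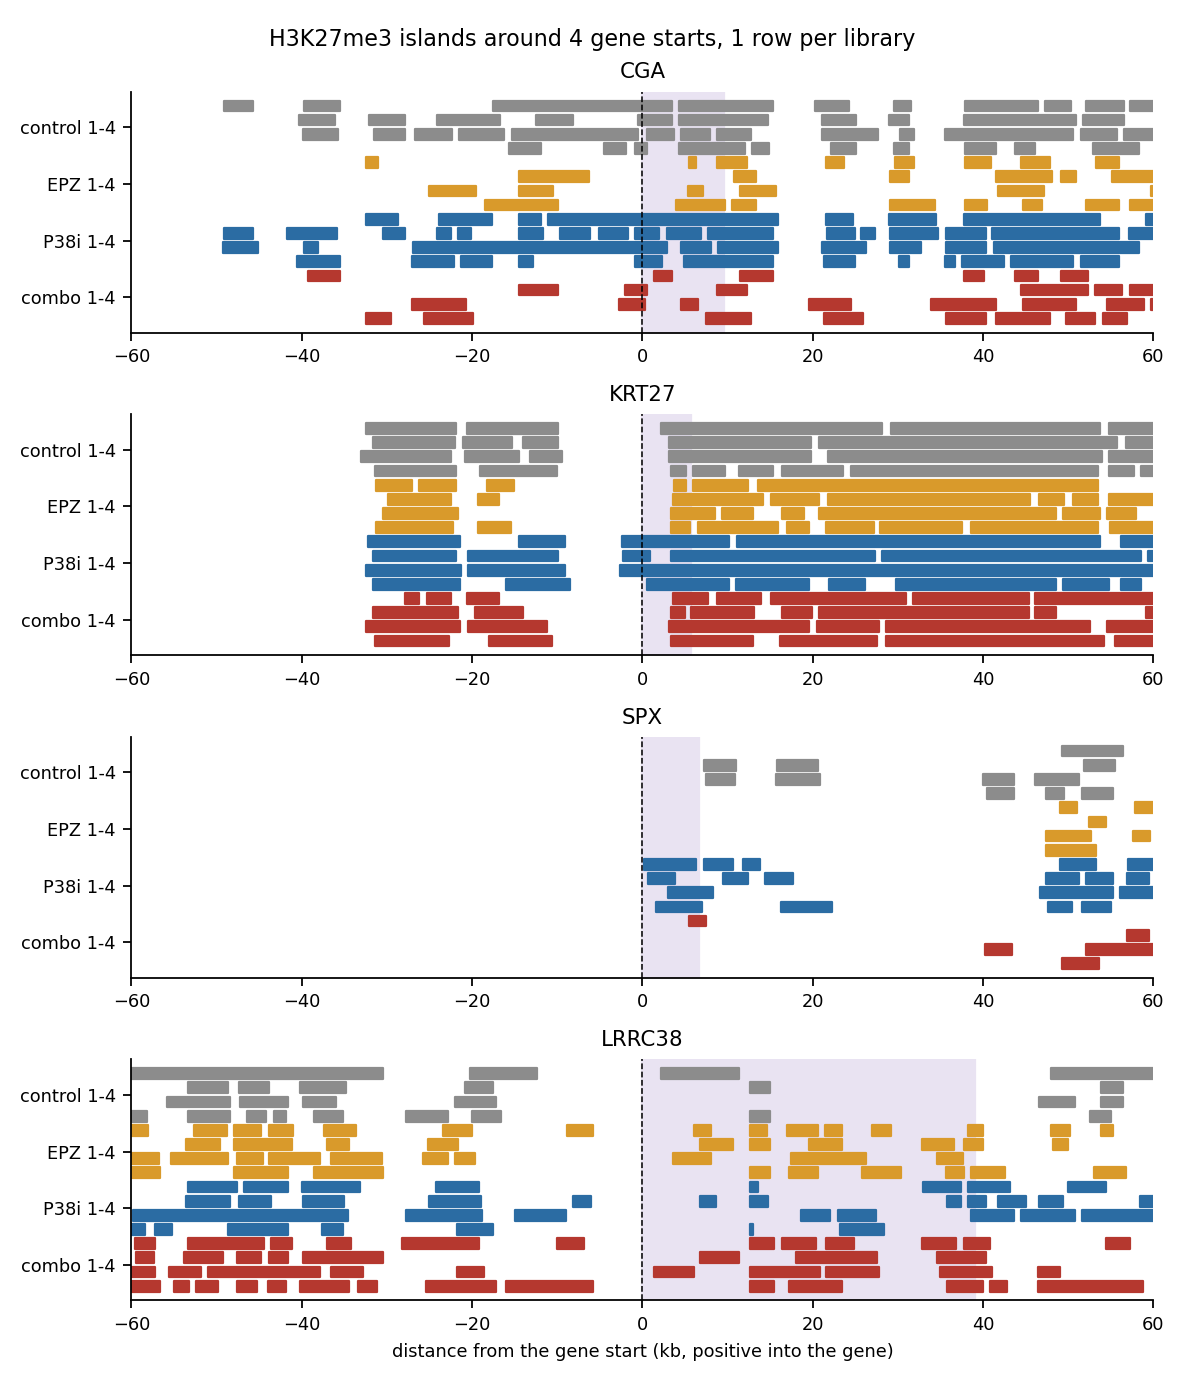
Islands within 60 kb of the gene starts of CGA, KRT27, SPX and LRRC38, with distance in kb on the x axis, 1 row per library, coloured by group, and the gene shaded. The island over the CGA gene start in every P38i library is missing in 2 combo libraries. The KRT27 gene start lies in an island in P38i replicates 1, 2 and 3 and in no combo library. In P38i replicate 4 the nearest KRT27 island begins 0.55 kb into the gene. The SPX islands of P38i are reduced to 1 short island in combo replicate 1, and LRRC38 gains islands inside the gene.

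Some of the 13 were also covered in untreated cells and had lower means with EPZ alone. NME5, which encodes a nucleoside diphosphate kinase family protein of cilia and sperm, was covered to 10.9, 24.6, 27.3 and 23.2% in P38i and had no island in any combo or EPZ library (difference -21.5 points, adjusted p = 0.00415). Control libraries had 13.3% ± 4.95 there. FOXB1, a forkhead developmental regulator, lay at 24.5, 24.5, 24.5 and 22.0% in P38i and at 0 in every combo library (-23.9 points, adjusted p = 0.00434). MYZAP, which encodes a protein of heart cell junctions, was covered to 25.8, 22.7, 23.2 and 16.9% in P38i and to 2.23, 6.70, 4.88 and 2.23% in combo (-18.1 points, adjusted p = 0.00434). PURG, a gene for a purine-rich element binding protein, went from 32.1% ± 3.61 to 3.0% ± 3.47 (adjusted p = 0.00100). In all 4 genes the groups did not overlap. NME5 and FOXB1 passed the coverage filter only through their P38i values, so their adjusted p-values describe those libraries. Control and EPZ means were 14% and 0% for FOXB1, 16.9% and 6.40% for MYZAP, and 23.7% and 9.46% for PURG.

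At the next genes the P38i mean stood above the control mean, and the control and combo means lay close together. SPX encodes the peptide hormone spexin and lies at chr12:21526296-21532947. Its coverage was 53.6, 27.5, 38.2 and 46.3% in P38i, 17.2% in combo replicate 1 and 0 in the other combo libraries. Control libraries held at most 2.12%, and EPZ libraries held none. The fall was -37.1 points (95% interval -47.5 to -26.7, adjusted p = 0.00197). TAC3, the gene for the neuropeptide neurokinin B, was covered to 45.1, 38.2, 45.1 and 57.2% in P38i and had no island in combo (adjusted p = 0.00415). One control library (26.0%) and 1 EPZ library (27.8%) had an island there. ALOX15, which encodes a lipoxygenase of lipid mediator synthesis, went from 25.9% ± 4.49 to 2.47% ± 3.52 (n = 4, adjusted p = 0.000921), against 2.19% ± 4.37 in control. DEFB108B, a beta-defensin gene, was covered to 50.5, 54.7, 48.4 and 39.95% in P38i and to 0 in all combo libraries (adjusted p = 0.00249), with an island in 1 control library (37.9%). The P38i libraries enter both the comparison with combo and that with control, so the 2 sets of values are not independent. SPX, TAC3, ALOX15 and DEFB108B also passed the coverage filter only through their P38i values, so their adjusted p-values describe those libraries.

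KRT27, a keratin of the hair follicle inner root sheath, shows this pattern at its gene start. Its window (gene at chr17:40776808-40782550) was covered to 99.5, 75.3, 100 and 71.6% in P38i and 39.1, 38.1, 47.4 and 45.5% in combo, with no overlap (-44.1 points, adjusted p = 0.00415). Control libraries lay at 47.4% ± 7.6 and EPZ libraries at 39.96% ± 5.48. Within 2.5 kb of the gene start, P38i libraries were covered to 99, 64.0, 100 and 39.0% and every combo library to 0, while the islands farther downstream were still present, as the island map shows. OR6C76, an olfactory receptor gene, had the second largest fall, from 98.5, 86.5, 58.0 and 100% in P38i to 0, 21.0, 21.0 and 0% in combo (-75.3 points, adjusted p = 0.0164). Its control libraries spread from 21.0 to 78.2%.

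**Figure D3:**
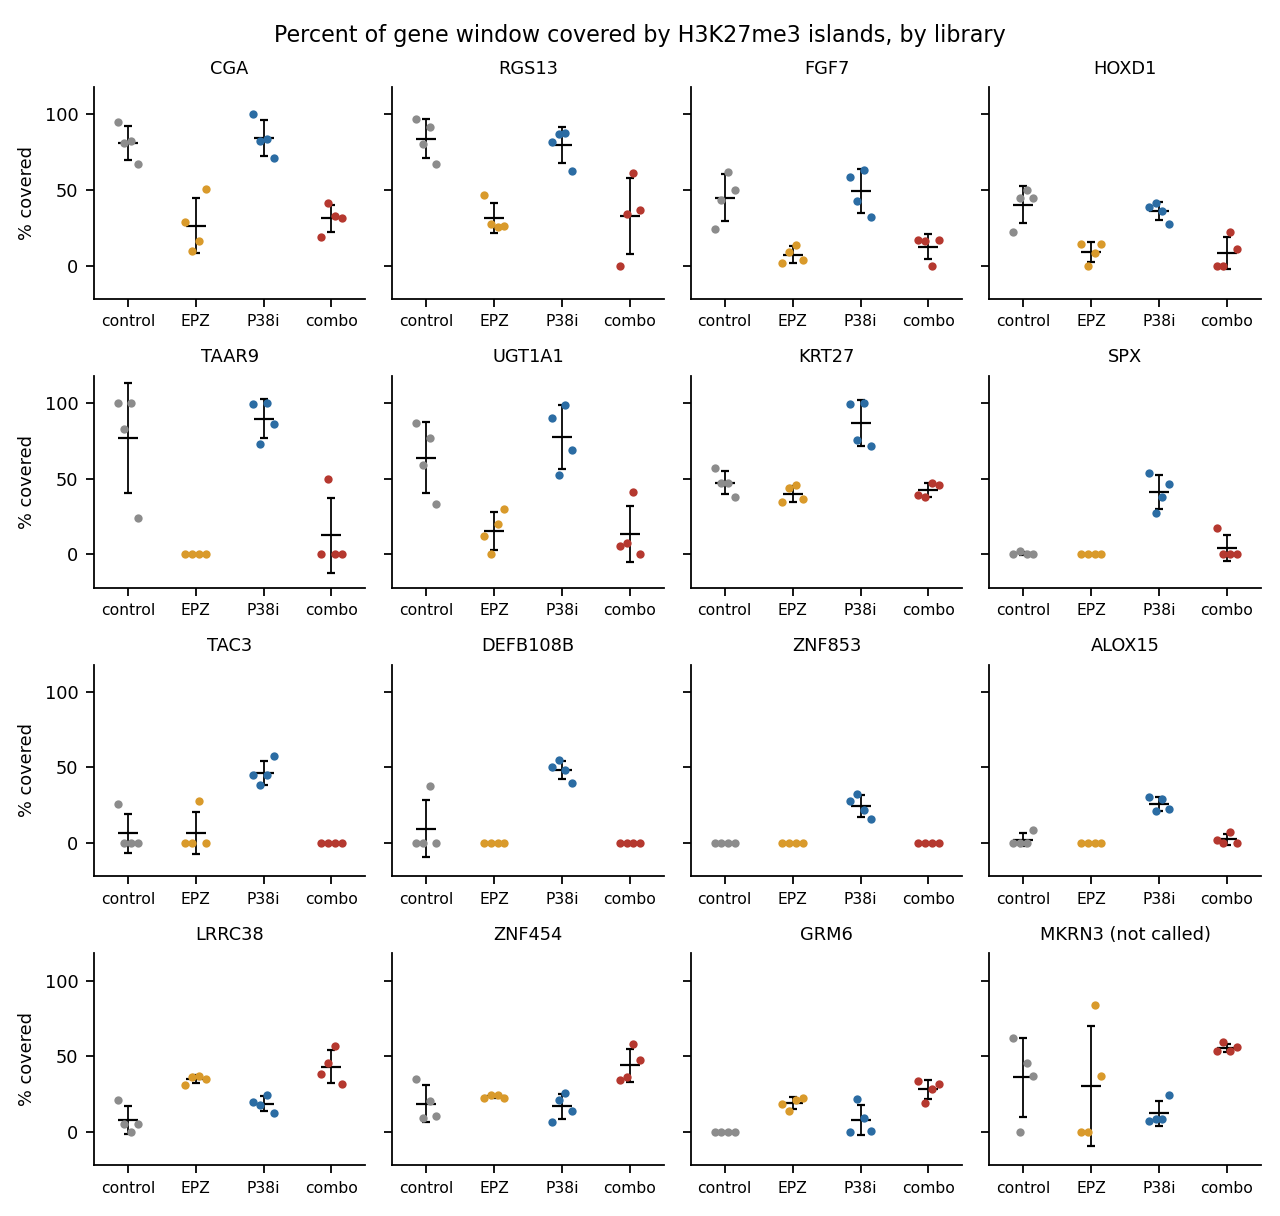
Percent of the gene window covered by islands in each of the 16 libraries for 16 genes (points, 4 per group), with the group mean and SD as bars. CGA, RGS13, FGF7 and HOXD1 are high in control and P38i and low in EPZ and combo; SPX, TAC3, DEFB108B, ZNF853 and ALOX15 are highest in P38i; LRRC38, ZNF454, GRM6 and MKRN3 are higher in combo than in P38i, and MKRN3 was not called.

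The remaining large falls were called in the full fit of 16 libraries but not in each set with 1 left out. With only the 8 combo and P38i libraries in the fit, UGT1A1, CABS1 and RGS13 were not called. TAAR9, a trace amine receptor gene, had the largest, from 99.6, 72.6, 100 and 86.2% in P38i to 0% in combo replicates 1, 3 and 4 and 49.9% in combo replicate 2 (-77.1 points, 95% interval -109 to -44.9, adjusted p = 0.0242). The groups did not overlap, but without combo replicate 1, 3 or 4 or P38i replicate 1 or 3 the call was lost (adjusted p up to 0.0847). UGT1A1, the bilirubin-conjugating enzyme gene, was covered to 90.0, 52.1, 98.9 and 68.8% in P38i and to 5.72, 7.76, 41.0 and 0% in combo (-63.8 points, adjusted p = 0.0274, up to 0.0903 with 1 library left out). RESP18, a secretory granule protein gene, fell by 56.4 points, CABS1, a sperm calcium-binding protein gene, by 51.2 points, and CCKAR, the cholecystokinin A receptor gene, by 51.0 points. RGS13, a regulator of G protein signalling in B cells, went from 79.6% ± 11.9 to 33.0% ± 25.1 (n = 4, adjusted p = 0.0398). KRTAP9-4, a hair keratin-associated protein gene, fell by 47.7 points (adjusted p = 0.0373), but with lists cut to equal length its difference was 0.641 points (adjusted p = 0.999). Those lists also gave smaller differences, not called, for TAAR9 (-37.4 points, adjusted p = 0.589) and RESP18 (-23.2 points, adjusted p = 0.618). For KRTAP9-4, DEFB108B, OR6C76 and the UGT1A genes, which have close copies, how reads shared between copies were placed is not given in the sources used here.

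Among regulators and signalling genes, single members of several lists were called, beside 1.85% of all tested genes called lower, and with lists this short no share can be told from that background. HOXD1, the only called member of 6 tested HOX genes, was covered to 38.8, 41.5, 35.9 and 27.7% in P38i and 0, 0, 22.2 and 11.1% in combo (-27.6 points, adjusted p = 0.0398). Of 29 tested WNT, BMP and FGF ligand and antagonist genes, 2 were lower. FGF7, a growth factor made by mesenchymal cells for epithelia, went from 58.8, 42.4, 63.1 and 32.3% to 17, 16.4, 0 and 16.8% (-36.6 points, adjusted p = 0.0364). WNT8B, a brain WNT ligand, went from 64.3% ± 8.18 to 36.0% ± 7.20 (adjusted p = 0.0398). STMN2, a neuronal microtubule regulator, was the 1 call among 39 neuronal genes and among 10 tested members of a list of tumour genes known to be silenced through EZH2 (-24.7 points, adjusted p = 0.0440). FIGLA, an oocyte transcription factor, was the 1 call among 26 germline genes (-43.8 points, adjusted p = 0.0250). Each of these 5 kept its call in only 1 to 3 of the 8 sets with 1 library left out, the set without P38i replicate 4 among them, with adjusted p up to 0.127 for HOXD1, 0.115 for FGF7, 0.106 for WNT8B, 0.155 for STMN2 and 0.0849 for FIGLA. With equal-length lists none of the 5 was called, and HOXD1 (-14.5 points), FGF7 (-14.2 points) and FIGLA (-19.6 points) differed by much less. None of the 56 tested members of the list of developmental transcription factors outside the HOX clusters was called, and none of the 33 of the blood-lineage list. These counts cover list members only, and the lists do not hold every gene of a kind. FOXB1, a developmental regulator outside them, was called lower.

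The p38 pathway list had 37 genes, of which 31 had no island in the 8 libraries and 3 were tested. None of the 3 was called. MEF2C, a transcription factor that p38 phosphorylates, was covered to 23.2, 12.5, 19.1 and 8.95% in P38i and 2.19, 2.40, 8.23 and 1.35% in combo. All combo libraries lay below all P38i libraries, and the difference of -12.4 points did not pass adjustment (95% interval -20.4 to -4.40, adjusted p = 0.0971). EPZ and control stood at 2.58% ± 3.06 and 13.7% ± 7.23. MAP2K6, the kinase upstream of p38, differed by -9.19 points (adjusted p = 0.542), and GADD45G, an activator of that cascade, by 0.764 points (adjusted p = 0.949).

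The 3 genes with more coverage in combo were LRRC38, ZNF454 and GRM6. LRRC38 encodes an auxiliary subunit of BK potassium channels and lies at chr1:13474973-13514003. It was covered to 19.8, 17.7, 24.4 and 12.7% in P38i and 38.6, 45.4, 56.8 and 31.6% in combo, with no overlap (24.5 points, 95% interval 12.8 to 36.1, adjusted p = 0.0373). With EPZ alone it was also called higher, with 7.95% ± 9.0 in control and 34.8% ± 2.70 in EPZ (adjusted p = 0.0253). ZNF454, a zinc finger gene at chr5:178941198-178990028, was covered to 6.69, 21.2, 25.6 and 13.7% in P38i and 34.6, 36.6, 58.0 and 47.4% in combo (27.3 points, adjusted p = 0.0412). GRM6, the metabotropic glutamate receptor gene of retinal ON bipolar cells, overlaps the ZNF454 window. It rose from 0, 21.7, 9.07 and 0.791% to 33.6, 19, 28.2 and 31.7% (20.2 points, adjusted p = 0.0364), and its groups overlapped. Each of the 3 rises lost its call without 5 or more of the 8 libraries in turn (adjusted p up to 0.0933 for LRRC38, 0.128 for ZNF454 and 0.103 for GRM6). With equal-length lists GRM6 was called (adjusted p = 0.0453), and LRRC38 (adjusted p = 0.181) and ZNF454 (adjusted p = 0.126) were not. All 6 tested genes within 400 kb of ZNF454 had a positive difference, from 6.73 to 27.3 points, and the same 6 had a higher mean in EPZ than in control. For ZNF454 itself that step was small and not called, from 18.7% ± 12.1 in control to 23.5% ± 0.977 in EPZ (limma, adjusted p = 0.720). This stretch was chosen after its values were seen.

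The promoters of 2 of the 3 rising genes are shown for comparison with those above, with CG in capitals again: LRRC38 (chr1:13514004-13514253, minus strand) and ZNF454 (chr5:178940948-178941197, plus strand).
LRRC38: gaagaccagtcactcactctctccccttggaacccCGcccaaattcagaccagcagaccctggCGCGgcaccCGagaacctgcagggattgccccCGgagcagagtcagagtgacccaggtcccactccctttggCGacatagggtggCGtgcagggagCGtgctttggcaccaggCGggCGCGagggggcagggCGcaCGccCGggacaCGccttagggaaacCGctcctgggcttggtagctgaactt
ZNF454: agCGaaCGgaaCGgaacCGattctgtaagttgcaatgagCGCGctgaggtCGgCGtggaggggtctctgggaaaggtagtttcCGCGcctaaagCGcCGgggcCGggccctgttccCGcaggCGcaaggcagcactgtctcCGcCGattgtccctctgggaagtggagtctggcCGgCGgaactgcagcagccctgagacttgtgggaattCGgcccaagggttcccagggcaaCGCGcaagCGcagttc
LRRC38 held 16 CG dinucleotides and ZNF454 held 23, beside a median of 17 over all protein-coding genes, and GRM6, not printed, held 10 or fewer. The added coverage of LRRC38 lay inside the gene rather than at these sequences, since within 2.5 kb of the gene start only combo replicate 3 had an island (22.0%). For ZNF454 that window held 0, 36.0, 5.96 and 38.1% in combo and no island in P38i. Its mean there was 11.5% in control and 0% in EPZ.

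The gene lists are described by their medians, beside the median of -5.14 points over all tested genes, and differences between lists were not tested. No list except the zinc fingers outside chromosome 19 held a called rise. The UGT list, drug- and hormone-conjugating enzymes of liver and gut, had 18 tested members. All 18 had a lower mean in combo, with a median of -21.4 points, 8 had all combo libraries below all P38i libraries, and 1, UGT1A1, was called. Among all tested genes these shares were 76.6% with a negative difference, 10% with no overlap and 1.85% called lower, so the single call is no result about the family. The 9 UGT1A genes on chromosome 2 share their final exons, so they are not separate measurements. UGT2A1 and UGT2A2 on chromosome 4 also overlap. The 8 genes with all combo libraries below all P38i libraries were UGT1A genes, UGT2A1 and UGT2A2, so they are not 8 separate results. UGT1A9 stood at 55.6% ± 9.30 in P38i and 31.2% ± 8.52 in combo (n = 4, adjusted p = 0.0813). On chromosome 4, UGT2B7 was covered to 12.3, 12, 16.5 and 0% in P38i and had no island in combo (adjusted p = 0.0813). The same 18 genes were also all lower in EPZ than in control, with a median of -18.2 points. The median stayed negative with the covered length as a covariate (-13.5 points, 16 of 18) and with equal-length lists (-10.7 points, 10 of 12 tested).

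All 10 tested voltage-gated sodium channel genes had a lower mean in combo, with a median of -11.5 points, beside 76.6% of all tested genes, and none was called. Of these, 5 lie in a cluster on chromosome 2. SCN1A, mutated in childhood epilepsies, was covered to 48.9, 33.7, 43.1 and 25.9% in P38i and 9.47, 15.0, 17.7 and 15.0% in combo, with no overlap (-23.6 points, adjusted p = 0.0633). SCN2A went from 48.1% ± 10.1 to 24.9% ± 6.04 (adjusted p = 0.0667) and SCN9A, a channel of pain-sensing neurons, from 25.6% ± 6.99 to 9.27% ± 3.51 (adjusted p = 0.0729). With the covariate and with equal-length lists, 7 of the 10 were negative. Among 27 keratin genes 24 had a lower mean, with a median of -14.5 points, and KRT27 alone was called, beside 1.85% of all tested genes called lower. For the 15 taste and trace amine receptors the median was -8.42 points, but it turned to 1.82 with the covariate and 6.91 with equal-length lists. For the 45 keratin-associated protein genes it was -6.76 points and turned to 9.91 with equal-length lists.

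Zinc finger genes had positive medians. Of 41 tested on chromosome 19, 10 had a negative difference, against 76.6% of all tested genes, and the median was 4.55 points (8.53 with the covariate and 12.1 with equal-length lists). None was called, and 3 had all combo libraries above all P38i libraries, beside 0.828% of all tested genes. ZNF404 was covered to 0, 19.3, 27.7 and 0% in P38i and 36.1, 38.6, 63.5 and 41.3% in combo (33.1 points, adjusted p = 0.0803). ZNF578 stood at 30.8% ± 10.3 in P38i and 56.8% ± 5.55 in combo (n = 4, adjusted p = 0.103). The 47 zinc finger genes of other chromosomes had a median of 3.57 points, with 1 called higher, ZNF454, and 1 lower, ZNF853. Imprinted genes had a median of 0.878 points over 18 tested, with 7 negative and none called. MKRN3, an imprinted gene of the Prader-Willi region that restrains the onset of puberty, was covered to 7.38, 8.51, 8.51 and 24.4% in P38i and 53.5, 59.3, 53.5 and 56.2% in combo. Its groups did not overlap, yet control libraries spread from 0 to 62.0% and EPZ libraries from 0 to 83.7%, and the difference of 43.4 points did not pass (adjusted p = 0.151).

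**Figure D4:**
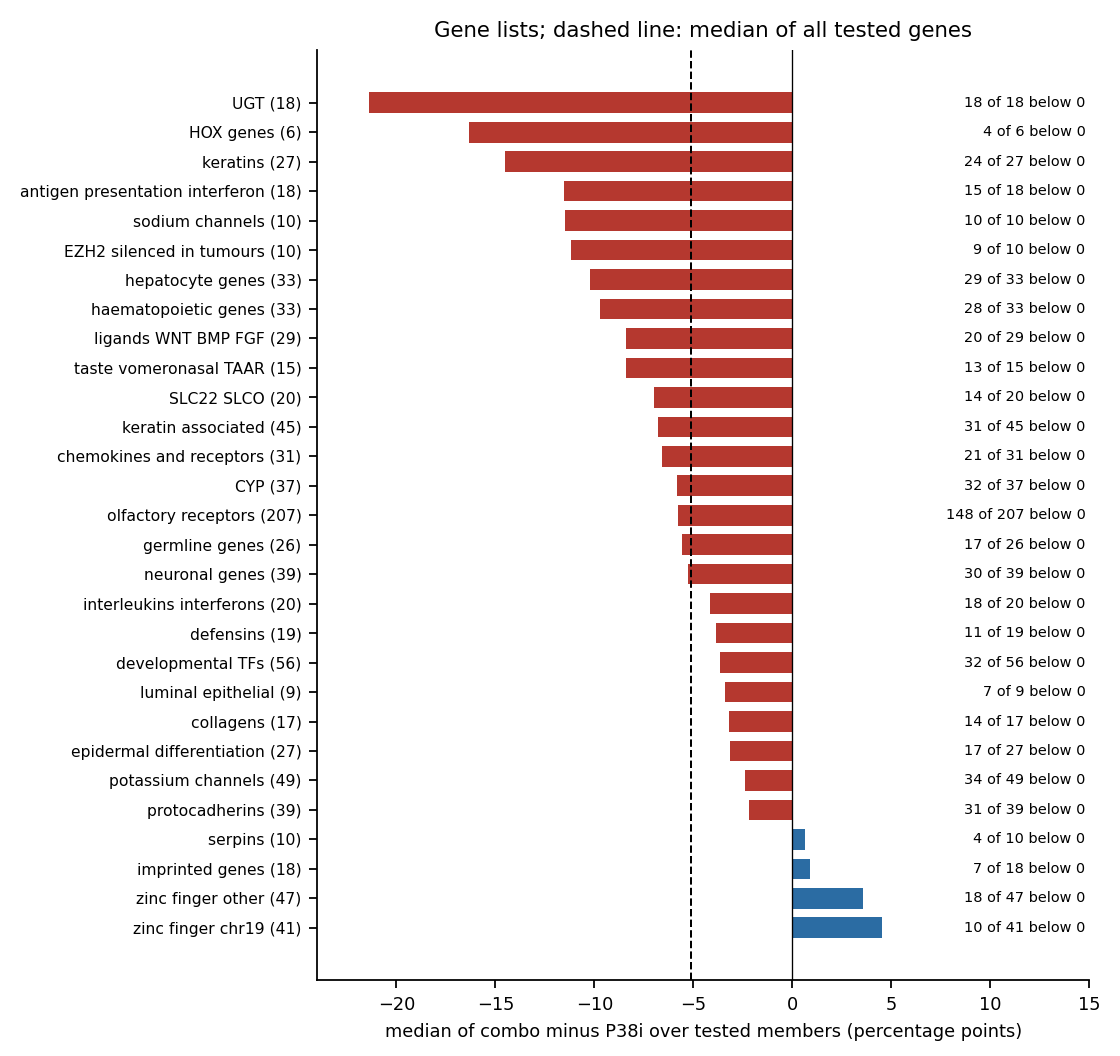
Median of combo minus P38i in percentage points (bars) over the tested members of each gene list with at least 5 tested members, whose number stands in brackets, with the count below 0 at the right. The dashed line marks the median of all tested genes, -5.14 points; UGT genes lie farthest below it and zinc finger genes of chromosome 19 farthest above.

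The effect of the EZH2 inhibitor with and without p38 inhibition was compared through EPZ against control, which shares no library with combo against P38i, although both used the same filter and the same spread per gene. Of the 76 lower genes, 70 (92.1%) were also lower in EPZ than in control, against 73.2% of all tested genes. EPZ against control called 125 genes lower (3.05%), and 22 genes were on both lists, which is 28.9% of the combo list and 17.6% of the EPZ list. The 22 include CGA, RGS13, FGF7, HOXD1, STMN2, TAAR9, FIGLA and ALDH1A1. ALDH1A1, a retinaldehyde dehydrogenase used as a stem cell marker in breast tumours, stood at 57.8% ± 15.7 in control, 13.6% ± 5.55 in EPZ, 61.0% ± 19.2 in P38i and 21.2% ± 9.0 in combo (n = 4 each). Its call in combo against P38i held in 1 of the 8 sets with 1 library left out (limma, adjusted p up to 0.114). With equal-length lists it was not called (-27.3 points, limma, adjusted p = 0.276). LRRC38 and GRM6 were called higher in both comparisons.

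Only 2 of 4105 genes (0.0487%) passed adjustment when the difference between the comparisons was itself tested. An unadjusted p under 0.05 was found at 141, fewer than that threshold alone would give if no gene differed. ZNF853, a zinc finger gene at chr7:6615610-6624290, was covered to 27.8, 32.2, 21.9 and 16.1% in P38i and had no island in the 12 other libraries. Its EPZ step was 0, its step in P38i cells -24.5 points, and the difference -24.5 points (95% interval -32.5 to -16.5, adjusted p = 0.0212). LOC107987433, at chr5:1285397-1289245 and named here after its values were seen, had no island in control or combo. It was covered to 20.3, 31.6, 18.1 and 0% in EPZ and to 33.9, 29.4, 36.2 and 22.6% in P38i, which gave a difference of -48.0 points (adjusted p = 0.0212). Both genes had whole groups at 0, where p can come out too small. ZNF853 also entered the test only through its P38i values and fell below the coverage filter without P38i replicate 1 or 2, so its call is a description of those libraries. Next in line were ALOX15 (-21.3 points, adjusted p = 0.0927) and SPX (-36.5 points, adjusted p = 0.102), which did not pass. For CGA the difference was 1.71 points, with a 95% interval of -25.1 to 28.5.

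In bins of 10 kb across the genome, 3 of 91044 tested bins (0.0033%) passed adjustment, and 9069 had an unadjusted p under 0.05. The 1 lower bin, chrX:55360001-55370000, was covered to 70, 62, 76 and 50% in P38i and had no island in combo (adjusted p = 0.0304). Its neighbouring bins held at most 2.5% in P38i, and no protein-coding gene touches it. In combo, however, the bin from chrX:55370001 held 16% and the bin from chrX:55380001 held 8%. A higher bin at chr2:90390001-90400000, beside the centromere, was covered whole in all 4 combo libraries and had no island in any of the other 12 (adjusted p = 0.000160). Its lower neighbour was covered to 81.0% in combo and 0% in P38i. The other, at chr11:133340001-133350000 inside OPCML, a neural adhesion gene, had 78, 100, 92 and 66% in combo and none in P38i (adjusted p = 0.0344), with 59.5% in EPZ and 0% in control. All 3 bins had whole groups at 0, where p can come out too small. The chr2 bin passed the coverage filter only through combo and the chrX bin only through P38i, so their calls describe those libraries. How reads beside the centromere were placed is not given in the sources used here.

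By a simpler rule, set after the files were seen, a bin counted as lost if islands filled 50% or more of it in every P38i library and in no combo library, and as gained in the opposite case. Of 87422 bins so covered in any of the 8 libraries, 434 were lost (0.496%) and 88 gained (0.101%), while 35586 were covered in all 8. Losses were scattered, in 427 separate runs, of which none reached 3 bins. Lost runs of 2 bins touched CORIN, TTC29, ADGRV1 and TMEM196, and gained runs of 2 bins lay in OPCML and at chr19:20900001-20920000. Chromosome 4 lost the largest share, 56 of 4797 covered bins (1.17%), and chromosome 21 the smallest, 0 of 724. Chromosome 19 lost 1 of 1349 (0.0741%). In the libraries that the rule did not use, lost bins averaged 56.8% coverage in control and 32.6% in EPZ, and 86.6% of them were lower in EPZ, against 64.0% of all tested bins. Gained bins averaged 28.0% in control and 43.7% in EPZ, and 75% of them were higher in EPZ, against 33.9% of tested bins.

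The large domains of untreated cells stayed almost fully covered in both groups. Stretches of at least 10 kb covered in all 4 control libraries gave 7802 domains over 141 Mb, a frame that neither group chose. Domains covered over 50% or more of their length made up 99.9, 99.9, 100 and 99.2% in P38i and 98.1, 98.7, 99.7 and 99.3% in combo, and the difference was -0.766 points (exact permutation p = 0.0857, adjusted p = 0.163 over 19 domain measures). The covered length of the domains was 98.0% ± 1.75 in P38i and 95.7% ± 1.39 in combo, a difference of -2.28 points (exact permutation p = 0.0857). It was -2.79 points in domains of 10 to 25 kb, -1.33 at 25 to 50 kb, -0.681 at 50 to 100 kb and -0.293 in the 10 domains of at least 100 kb. Domains covered from end to end by 1 island made up 69.9% ± 16.9 in P38i and 52.3% ± 9.11 in combo (exact permutation p = 0.143). None of the 19 measures passed adjustment, and the smallest p that 4 against 4 can give is 0.0286.

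Split by how many control libraries covered a base, the difference in Mb was largest for bases covered in some control libraries only, with no class passing adjustment. Bases covered in all 4 control libraries amounted to 338 ± 14.4 Mb in P38i and 318 ± 10.1 Mb in combo (-20.3 Mb, exact permutation p = 0.0857). Bases covered in 1 to 3 control libraries came to 251 ± 39.6 Mb and 213 ± 25.3 Mb (-37.9 Mb, exact permutation p = 0.143). Bases in no control island were 31.1 ± 7.79 Mb in P38i and 34.2 ± 8.52 Mb in combo (3.10 Mb, exact permutation p = 0.629). In each class P38i replicate 4 was the lowest P38i library, at 317, 195 and 21.1 Mb.

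**Figure D5:**
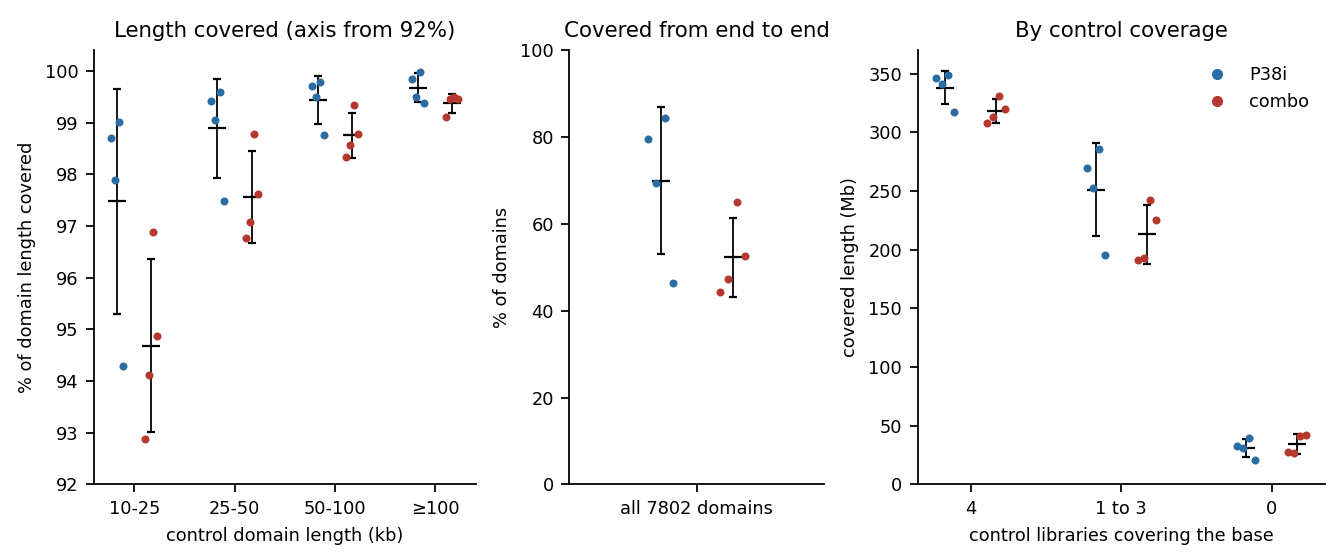
P38i and combo libraries (points; bars are mean and SD, n = 4) over domains defined in control cells: percent of domain length covered by domain length class (left, axis from 92%), percent of domains covered by 1 island from end to end (middle), and covered Mb by the number of control libraries covering a base (right). Combo means lie below P38i in every panel except for bases with no control island, and P38i replicate 4 overlaps the combo libraries.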

How the data were processed

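The authors made ChIPmentation libraries. Per the submitters' processing notes, which give no order, the tools were SICER (the island caller), Bowtie2 2.3.4.1, cutadapt, FastQC, Trim Galore, SAMtools 1.2, bedtools 2.28.0 and Picard, with build hg38; no source used here gives the island settings. The deposited lists hold island bounds on a grid of 200 bp, with no score or count. Island coverage was computed per gene (RefSeq, GRCh38.p14) and per 10-kb bin on chromosomes 1 to 22 and X and checked with bedtools 2.31.1. It was fitted with limma 3.58.1 in R 4.3.3 (trend and robust options, 1 fit of 16 libraries), with Benjamini-Hochberg adjustment over all features tested and a threshold of 0.05. Other steps used Python 3.11.15. On simulated data, 37 of 50 genes lowered by 40 points were recovered, and 10 of 50 lowered by 20 points. Of 3905 unchanged genes, 5 were called. The changed genes all had mid-range coverage, and noise was drawn independently per library, with no shift shared across a library. The recovery therefore does not extend to genes with whole groups at 0 or to differences in covered length between libraries.

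Genes were named by rule: the 10 largest falls and rises among called genes whose groups did not overlap, and the 3 tested members with the lowest p from each of 36 gene lists. The members, lists and rule were chosen with earlier results of these data known. Genes outside the rule (GJB7, NME5, FOXB1, MYZAP, PURG, SPX, TAC3, ALOX15, GRM6, ALDH1A1 and the LOC genes) were named after their values were seen. Gene-start windows, promoter counts, the lost and gained bins and the domain measures beyond covered length were also added then. The alternatives changed the library scaling, filter, scale, variance model, gene window, bin size, narrow islands and left-out libraries.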

Additional observations from a re-analysis of the deposited data

Results flagged for a closer look

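In a check of 34 groups of 4 values for a single library far from the rest, 2 were picked out. Chance picks about 1 in 20 groups of continuous values, but in both groups 3 of the 4 values were 0, where any other value is picked out by construction, so that rate does not apply. TAAR9 had 49.9% coverage in combo replicate 2 and 0 in the 3 other combo libraries. CABS1 had 39.5% in combo replicate 3 and 0 in the others.

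The contrast between the EZH2 inhibitor step with and without the p38 inhibitor passed adjustment at 2 genes. For LOC107987433 the difference was -48.0 points and for ZNF853 it was -24.5 points (limma, adjusted p = 0.0212 each). In ZNF853 only P38i libraries had islands, and the gene passed the coverage filter only through them, so its value describes those libraries. In LOC107987433 both P38i and EPZ libraries had them. Both genes had whole groups at 0, where p can come out too small.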

How the results depend on the processing

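The count of called genes was 79. It was 46 with only the 8 combo and P38i libraries, 35 on an arcsine square root scale, 12 with equal-length lists (in each library the widest islands up to the smallest covered length), 46 without islands under 2 kb and 10 for windows of 2.5 kb around the gene start. Leaving out each library gave 16 to 231. All 76 lower genes stayed below 0 with the covered length as a covariate, where 41 were called. With equal-length lists 56 could be tested, 55 were below 0 and 3 were called lower. The count of bins went from 3 to 1 with the covariate, 0 with 8 libraries, 25 without the filter, 45 without the trend and robust options, 1 with equal-length lists, 0 for bins of 5 kb and 1 for bins of 25 kb, and to 1 to 5 with a library left out. The share of domains covered over 50% or more differed by -1.18 points with equal-length lists (exact permutation p = 0.0286). With a library left out it differed by -1.02 to -0.492 points. The number of islands differed by -2472 to 5931, with the sign turned without P38i replicate 1 (-1411) or 3 (-2472). KRTAP9-4 turned to 0.641 points with equal-length lists. The causes were not tested.

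With the replicate number as a block, 45 genes, 1 bin and 1 interaction gene were called. Deviations of same-numbered libraries correlated between -0.0231 and 0.0434 over 4 pairs, and 0 of 8 libraries correlated best with their own number, so the numbers were not taken as pairs. Read depth is unknown, and a loss of signal within a called island would not be seen.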
